A study of Homo sapiens with 28 samples.

Results

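The H3K4me3 peaks of early G1 were set against those of G2/M, the phases on either side of cell division, to ask which places carried the mark before and after it. The members were the deposited H3K4me3 peaks of 2 of the 28 samples in the series, 23132 peaks in early G1 and 26809 in G2/M on chromosomes 1 to 21. A peak was kept when it overlapped a peak of the other list by at least 1 bp. An early G1 peak without a partner was gained, and a G2/M peak without a partner was lost.

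The cells were human embryonic stem cells that carry Fucci, a pair of fluorescent reporter proteins made and destroyed as the cell cycle proceeds, so that living cells can be sorted by phase. They were grown without serum or feeder cells in a defined medium with Heregulin b1 at 10 ng/ml, Activin a at 10 ng/ml, Longr3 IGF-1 at 200 ng/ml and FGF2 at 8 ng/ml. Cell sorting by FACS gave 4 fractions, early G1 (labelled DN), late G1 (KO2), S phase (AzL) and G2/M (AzH), all from the same reporter cells and medium. Each had 1 library per mark, so no difference between phases could be tested, and the exact Clopper-Pearson 95% intervals given in brackets cover counting error only. No gene annotation of hg19 was used, so regions are given by position and the cell type was not checked against marker genes.

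H3K4me3 is laid down at active promoters and at promoters held ready for later use. H3K27ac marks active promoters and enhancers, whereas H3K27me3 is deposited by Polycomb complexes at silenced genes. In embryonic stem cells many developmental promoters carry H3K4me3 together with H3K27me3 and are called bivalent, and transcription largely pauses in mitosis and resumes as daughter cells enter G1.

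The early G1 library stood apart from the other H3K4me3 libraries. Over the 15296 regions listed in all 4 fractions, the rank correlation of peak heights was 0.775 between early G1 and G2/M, 0.742 between early G1 and late G1 and 0.817 between early G1 and S. Among late G1, S and G2/M it lay between 0.872 and 0.906. The regions share these libraries, so the values describe the lists and carry no p. Peaks were also wider in early G1, with a median of 675 bp against 500 bp in late G1, 550 bp in S and 475 bp in G2/M. They covered 20.9 Mb in early G1 and 18.5 Mb in G2/M. The S list covered 20.6 Mb, close to early G1, and the late G1 list 18.0 Mb. The H3K27me3 lists held 22140 peaks in early G1 and 24445 in G2/M, and the H3K27ac lists 28460 and 18380, so a peak had more acetylated places to overlap in early G1.

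Most H3K4me3 peaks were listed on both sides of division, and those listed on one side were short and low. In early G1, 18906 peaks were kept (81.7%, 81.2 to 82.2) and 4226 were gained (18.3%). In G2/M, 20842 were kept (77.7%, 77.2 to 78.2) and 5967 were lost (22.3%). The longer list leaves more peaks without a partner: with equal numbers of peaks the kept shares were 78.2% in early G1 and 82.8% in G2/M, the opposite order.

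Gained peaks had a median width of 200 bp, against 875 bp for kept early G1 peaks. Lost peaks had a median width of 175 bp, against 675 bp for kept G2/M peaks. Heights were divided by each list's median over kept regions, 103.4 in early G1 and 61.01 in G2/M, to give a relative height. Gained peaks had a median relative height of 0.214, against 0.898 for kept early G1 peaks. Lost peaks had a median of 0.284, against 0.820 for kept G2/M peaks. The lists reach down to different relative heights, with a 5th percentile over all peaks of 0.182 in early G1 and 0.228 in G2/M. The gained and lost medians thus lie near different floors. The tallest gained peak reached a relative height of 0.931, below the median kept region of its list, whereas the tallest lost peak reached 8.84. That lost peak carried both H3K27me3 and H3K27ac and lay within 2.5 kb of a kept peak. The tallest lost peak with neither mark reached 7.47. The lists also differ at the top, where kept peaks reached 7.37 in early G1 and 21.7 in G2/M.

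**Figure D1:**
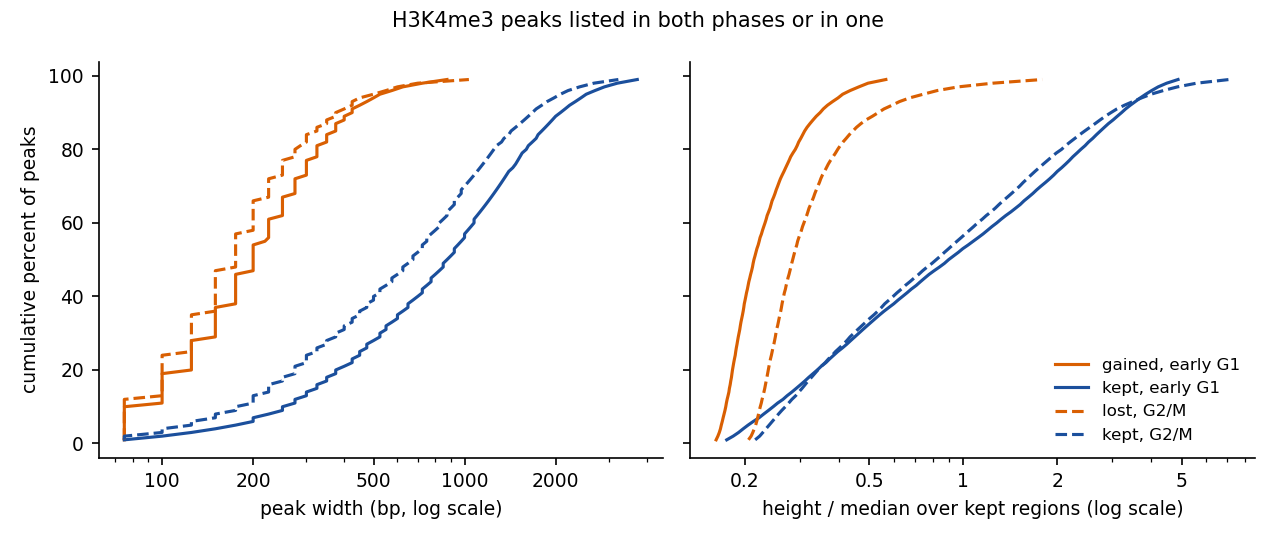
Cumulative percent of H3K4me3 peaks (vertical axis) by width in bp (left) and by height relative to the median over kept regions (right), both on log scales and drawn from the 1st to the 99th percentile, for gained and kept early G1 peaks (solid) and lost and kept G2/M peaks (dashed). The gained and lost curves lie left of the kept curves in both panels, and lost peaks have a longer tail of tall peaks than gained ones.

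The rule has a sharp edge. The smallest overlap was 25 bp, the step of the peak grid, and 108 early G1 and 160 G2/M peaks were kept by it, with median heights of 20.4 and 15.2. Just outside it, 96 early G1 and 101 G2/M peaks touched a peak of the other list without overlapping it, with median heights of 20.7 and 15.7.

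H3K27ac was found more often under gained than under lost peaks, and H3K27me3 somewhat more often under lost ones. Of the gained peaks, 760 overlapped an H3K27ac peak of early G1 (18.0%, 16.8 to 19.2), and of the lost peaks, 258 overlapped one of G2/M (4.32%, 3.82 to 4.87). The kept peaks showed the same lean, with 38.4% acetylated in early G1 and 13.6% in G2/M. With equal numbers of H3K27ac peaks in both phases the shares were 13.2% of gained and 4.32% of lost peaks.

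H3K27me3 lay under 1162 gained peaks (27.5%, 26.2 to 28.9) and 1845 lost peaks (30.9%, 29.7 to 32.1). Kept peaks carried it less often, at 19.2% in early G1 and 14.5% in G2/M. Each list was also cut to the peaks with a deposited score more negative than its median, the stronger ones, and matched anew. H3K27me3 then lay under 17.0% of 1075 unmatched early G1 peaks and 44.5% of 2402 unmatched G2/M peaks. H3K27ac lay under 38.0% and 5.70% of them. Many of these peaks had a partner in the weaker part of the other list and count as kept above. Their shares therefore do not describe gained and lost peaks alone. Peaks with both marks were rare, 15 of the gained and 70 of the lost. The 70 were the tallest class of lost peaks, with a median height of 41.6 against 17.4 for all lost peaks, and 24 of them also overlapped an H3K4me1 peak (34.3%, 23.3 to 46.6), against 117 of all lost peaks (1.96%). Places listed for several marks at once may be listed whatever the antibody, which was not tested.

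Whether a peak was kept followed its height in both lists, and at like height it differed by mark, with H3K27ac in the lower groups of both lists and with H3K27me3 in the G2/M groups above the lowest. When each list was divided into 10 equal groups by height, the kept share ran from 33.2% in the lowest early G1 group to 100% in the highest, and from 45.4% in the lowest G2/M group to 99.0% in the highest. All 2313 peaks of the seventh early G1 group were kept, as were those of the 3 groups above it.

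Set against peaks of like height, G2/M peaks with H3K27me3 were kept less often. With each list divided into 4 height groups, the second-highest G2/M group (heights from 34.5 to 87.8) kept 940 of 1255 peaks with H3K27me3 only (74.9%, 72.4 to 77.3), against 4674 of 4763 with neither mark (98.1%, 97.7 to 98.5). In the tallest group it kept 89.3% (86.4 to 91.8) of those with H3K27me3 only and 99.8% (99.7 to 99.9) of those with neither mark. The 2 upper early G1 groups kept nearly all peaks of each class, so no gap could be seen there. In the second-lowest early G1 group, 86.2% (84.5 to 87.8) of peaks with H3K27me3 only were kept, 84.3% (82.9 to 85.6) of those with neither mark and 76.9% (74.2 to 79.5) of those with H3K27ac only. In the lowest one these shares were 45.4%, 45.5% and 31.7%. The G2/M list differed in this too, with H3K27ac only kept at 62.7% in its lowest group and 84.3% in the next, against 47.1% and 75.3% with neither mark.

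**Figure D2:**
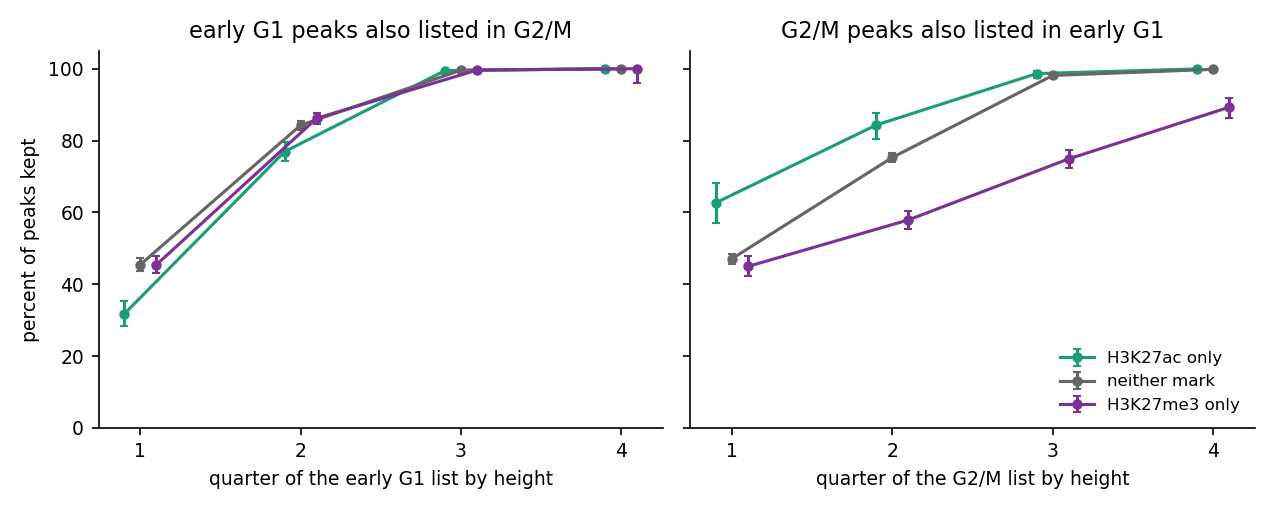
Percent of peaks also listed in the other phase (vertical axis) by group of height within the list, 1 being the lowest, for early G1 peaks (left) and G2/M peaks (right) with H3K27ac only, neither mark or H3K27me3 only in their own phase; bars are exact 95% intervals. The 3 classes lie together near 100% in the upper groups of early G1 and H3K27ac lies lowest in the other groups, whereas in the G2/M list the peaks with H3K27me3 only fall below the others, at 74.9% in group 3 and 89.3% in group 4.

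The taller lost peaks were mostly listed in late G1 or S, with H3K27me3 or without a mark. Above the G2/M list's median height, 373 peaks with H3K27me3 only were lost and 1423 were kept. Of the 373, 309 were listed in late G1 (82.8%, 78.6 to 86.5), 279 in the S list (74.8%, 70.1 to 79.1) and 44 in neither (11.8%, 8.70 to 15.5). Of the 97 lost peaks with neither mark above that height, 71.1% were listed in late G1 (61.0 to 79.9) and 69.1% in S (58.9 to 78.1). The 1423 kept peaks with H3K27me3 only were listed there at 98.9% and 97.8%. The H3K27me3 of the 373 was often missing from early G1 as well: 136 of them overlapped an early G1 H3K27me3 peak (36.5%, 31.6 to 41.6), against 1251 of the 1423 kept ones (87.9%, 86.1 to 89.6).

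Of the 373, 90 lay in 7 windows of 1 Mb crowded with lost peaks that are described below. Outside these windows the kept share of such peaks was 83.4% (81.5 to 85.1), against 79.2% (77.3 to 81.1) with them.

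The late G1 and S lists, which took no part in choosing the members, held lost peaks more often than gained ones. Of the gained peaks, 18.9% were listed in late G1 (17.7 to 20.1), 25.6% in the S list (24.3 to 26.9) and 66.8% in neither (65.3 to 68.2). Of the lost peaks, 34.0% were listed in late G1 (32.8 to 35.2), 33.3% in the S list (32.1 to 34.5) and 55.6% in neither (54.4 to 56.9). Kept peaks were listed in late G1 and S at 90.0% and 92.2% by the early G1 peaks, and at 87.3% and 91.3% by the G2/M peaks. Most gained and lost peaks were thus listed in 1 fraction alone.

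The mark under a peak went with how often it was listed in late G1. Gained peaks with H3K27ac only were listed in late G1 at 8.05% (6.20 to 10.2), below the 24.8% (22.4 to 27.5) of gained peaks with H3K27me3 only, whereas in S the shares were 23.0% and 22.5%. Lost peaks with H3K27me3 only were listed in late G1 at 46.1% (43.8 to 48.5), against 28.2% (26.8 to 29.6) of lost peaks with neither mark, and in S at 37.7% against 30.2%.

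Gained peaks sat closer to kept ones than lost peaks did. The median distance to the nearest kept peak was 2163.5 bp for gained peaks and 20601 bp for lost peaks. Within 2.5 kb of a kept peak lay 50.5% of gained peaks (49.0 to 52.0) and 35.2% of lost peaks (34.0 to 36.5). Near and far gained peaks had like widths, with a median of 200 bp in each set. Lost peaks near a kept peak were listed in S at 57.0%, and those farther away at 20.4%.

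Lost peaks crowded into a few windows of 1 Mb, read as hg19. Chromosome 4 from 49 to 50 Mb held 116 lost peaks among its 121 G2/M peaks, 68 of them with H3K27me3, and 99 of them were listed in late G1. Chromosome 10 from 42 to 43 Mb held 46 among 50, and chromosome 2 from 92 to 93 Mb held 41 among 41. These stretches adjoin centromeres. In all, 7 windows held at least 20 lost peaks making up at least 80% of their G2/M peaks, and together they held 296 of the 5967 lost peaks. Without them 5671 lost peaks remained and the kept share of G2/M peaks was 78.6%.

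Gained peaks were less crowded. The same chromosome 4 window held 24 of them among 29 early G1 peaks. Next came chromosome 6 from 28 to 29 Mb with 20 and from 27 to 28 Mb with 16, where they made up 27.8% and 21.3% of the early G1 peaks, beside 18.3% over all early G1 peaks. Chromosome 5 from 176 to 177 Mb and chromosome 19 from 44 to 45 Mb held 12 each (32.4% and 26.7%). Chromosome 6 from 26 to 27 Mb held 11 (15.7%). Over all gained peaks, 27.5% carried H3K27me3 and 66.8% were listed in neither late G1 nor S. Chromosome 5 from 140 to 141 Mb also held 11 gained peaks (28.9%), 2 with H3K27ac, none with H3K27me3 and none listed in late G1 or S. From general knowledge of the human genome rather than from an annotation of these files, the stretch on chromosome 6 adjoins or holds the large histone gene cluster and the one on chromosome 5 holds the clustered protocadherin genes, whose products are cell adhesion proteins of neurons.

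Among gained peaks with H3K27ac only, the widest of the named ones was listed for H3K4me3 in early G1 alone. It lay on chromosome 21 from 24754551 to 24757250, was 2700 bp wide and had a height of 83.9, and H3K27ac was listed there in early G1, late G1 and G2/M. A second such peak, on chromosome 9 from 127356201 to 127358400, had a height of 91.7 in early G1, 23.5 in late G1 and 34.2 in S phase and none in G2/M, although H3K27ac was listed there in all 4 fractions. On chromosome 1 from 114522001 to 114523400 the heights were 85.3 in early G1, 30.5 in late G1 and 21.1 in S. These acetylated places were covered by 1 early G1 peak of 1400 to 2700 bp, and by 625 to 1075 bp of peaks in late G1 and S where they were listed there.

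Gained peaks with H3K27me3 only were narrower. On chromosome 5 from 74348076 to 74348925 the height was 81.9 in early G1, 29.5 in late G1 and 31.9 in S, with H3K27me3 listed in all 4 fractions, G2/M included. On chromosome 11 from 122854976 to 122855625 it was 76.0 in early G1 and 31.4 in S, with H3K27me3 again in all 4 fractions. In both cases H3K27me3 was listed in G2/M where H3K4me3 was not.

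Several of the tallest lost peaks overlapped tall peaks of late G1 and S but none of early G1. On chromosome 11 from 117856601 to 117857025 the height was 115 in late G1, 97.4 in S phase and 234 in G2/M, with H3K27me3 in those 3 fractions and not in early G1. On chromosome 16 from 1202226 to 1202975 it was 69.5 in late G1, 83.5 in S phase and 215 in G2/M, with H3K27me3 listed in G2/M alone. On chromosome 6 from 21593476 to 21593900, with H3K27ac in the same 3 fractions, it was 180 in late G1, 194 in S phase and 135 in G2/M. There the late G1 peak was 4975 bp wide, the S peak 5300 bp and the G2/M peak 425 bp, so the heights come from peaks of unlike length. The G2/M peak lay within 2.5 kb of a kept peak, so H3K4me3 was listed close by in early G1 too. A broad lost peak of 11750 bp on chromosome 16, from 46397851 to 46409600, had heights of 205 in late G1, 61.7 in S phase and 213 in G2/M, with H3K27me3 in those 3 fractions.

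The 2 lists merged into 27678 regions, of which 17485 were kept and carried peaks in both phases. In a kept region the tallest peak gave the relative height and the summed peak lengths gave the width, and ratios are early G1 over G2/M on the log2 scale. The median ratio of relative height was 0.082, with 25% of regions below -0.51 and 25% above 0.53. The ratio was above 0 in 9441 regions (54.0%). That share depends on the scaling: it was 82.3% with heights as deposited, when the median ratio was 0.84, and 39.8% with the deposited score in place of the height, when it was -0.22.

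The tails were uneven. A ratio of at least 2-fold was found in 1221 regions higher in early G1 (6.98%) and in 2172 regions lower in early G1 (12.4%). The largest ratio was 2.73 and the smallest -5.18. The 470 regions at least 4-fold lower had a median height of 57.9 in early G1 against 226 in G2/M.

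Kept regions were wider in early G1. The median width was 950 bp in early G1 and 825 bp in G2/M, and 12707 regions were wider in early G1 (72.7%, 72.0 to 73.3). At least 2-fold wider were 1552 (8.88%), and at least 2-fold narrower were 549 (3.14%). Width and height ratios moved together, with a rank correlation of 0.50 over the 17485 regions. Even so, among regions between 0 and 1 log2 unit lower in relative height 61.0% were wider in early G1. Below -1 most were narrower, with 63.5% narrower between -2 and -1 and 64.5% at -2 or less.

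Regions acetylated in both phases or in early G1 only leaned towards early G1, and regions with H3K27me3 in both phases towards G2/M. The 2568 regions with H3K27ac in both phases and no H3K27me3 had a median height of 257 in early G1 and 120 in G2/M, and a median log2 ratio of relative height of 0.33. In the 4298 with H3K27ac in early G1 only the heights were 206 and 93.3, and the ratio was 0.35. In the 6796 with neither mark in either phase they were 76.2 and 47.3, with a ratio of -0.034. In the 2461 with H3K27me3 in both phases and no H3K27ac they were 44.0 in early G1 and 33.9 in G2/M, with a ratio of -0.33.

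Ratios above 0 made up 69.0% of regions acetylated in both phases, 48.1% of those with neither mark and 31.3% of those with H3K27me3 in both phases, beside 54.0% of all kept regions. Against the median of all kept regions, the 3 classes differed by 0.24, -0.12 and -0.41. With scores in place of heights these differences were 0.10, -0.056 and -0.40, so the order held, although the acetylated median itself was then -0.12. With heights as deposited all 3 medians were above 0 and the differences were those of the relative heights.

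Regions whose H3K27me3 was listed on one side of division differed too. Among those without H3K27ac in either phase, the 742 with H3K27me3 in early G1 only had a median ratio of -0.012. The 197 with it in G2/M only had -0.85, with heights of 50.3 in early G1 and 62.0 in G2/M. Of the 197, 89 were at least 2-fold lower in early G1 (45.2%), against 12.4% of all kept regions. Lower still was the set with H3K27me3 and H3K27ac in G2/M and no H3K27ac in early G1, 26 regions with a median ratio of -2.61, of which 24 were at least 2-fold lower. Like the lost peaks with both marks, these are places listed for several marks.

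Width leaned less by class. The median log2 width ratio was 0.26 for regions acetylated in both phases, 0.19 for those with neither mark and 0.15 for those with H3K27me3 in both phases, beside 0.22 for all kept regions. The 197 regions with H3K27me3 in G2/M only and no H3K27ac had -0.054.

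**Figure D3:**
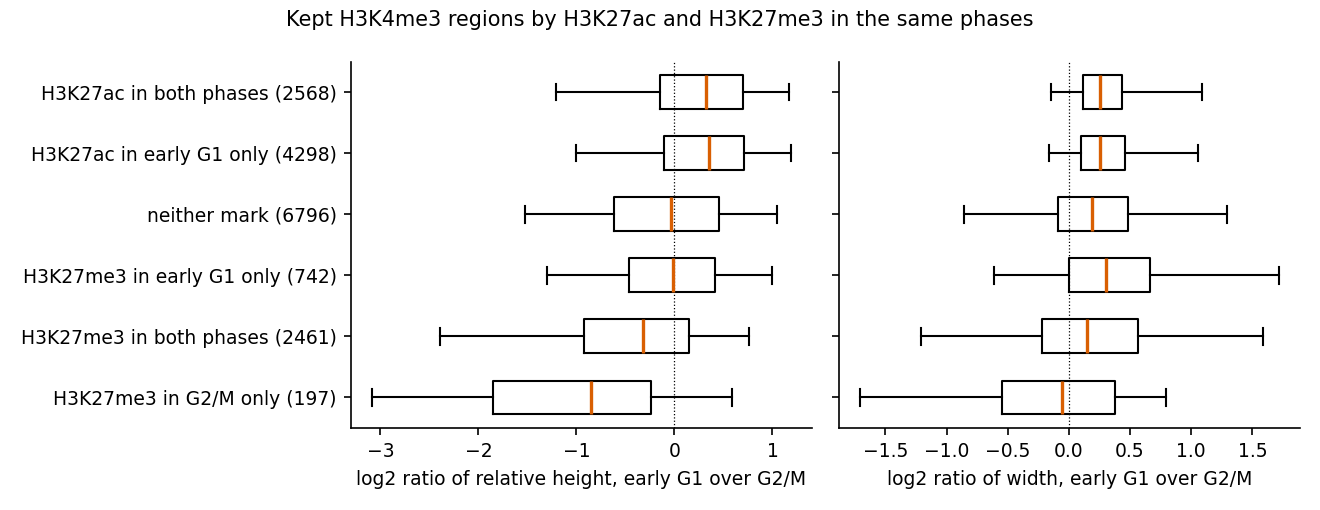
Log2 ratio of relative height (left) and of width (right), early G1 over G2/M, for kept regions in 6 classes by H3K27ac and H3K27me3, with the number of regions in brackets; the line is the median, the box runs from the 25th to the 75th percentile and the whiskers from the 5th to the 95th. The height medians run from 0.35 with H3K27ac in early G1 only to -0.85 with H3K27me3 in G2/M only, whereas every width median but the last lies above 0. Each class with 1 mark lacks the other mark in both phases, and the class with H3K27ac in G2/M only is not drawn.

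The ratios also differed by height group, which was formed on the mean relative height of both phases, so that a region could enter the top group through either phase. In the top of 4 groups, the 79 regions with H3K27me3 in both phases had median heights of 163 in early G1 and 294 in G2/M (relative heights of 1.58 and 4.82) and a median ratio of -1.89, and 58 of them were at least 2-fold lower in early G1. The 1431 tallest regions acetylated in both phases had 350 in early G1 and 174 in G2/M, with a median ratio of 0.30. In the lowest of the groups the medians were -0.24 for the 1172 regions with H3K27me3 and 0.14 for the 211 acetylated ones. The 2118 regions with neither mark had -0.25 there, level with those with H3K27me3. In the top group the 952 regions with neither mark had -0.10. The medians of the classes with H3K27me3 or H3K27ac in both phases kept their signs on each of the 21 chromosomes. They ran from -0.80 on chromosome 19 to -0.051 on chromosome 4 for H3K27me3, and from 0.13 on chromosome 13 to 0.48 on chromosome 8 for H3K27ac. The chromosomes share the same libraries and scaling, so they are not replicates. The sign for H3K27me3 rests on that scaling, since its median over all chromosomes was 0.44 with heights as deposited. The median of regions with neither mark changed sign between chromosomes, from -0.24 on chromosome 13 to 0.11 on chromosome 14.

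Read from the other side, the regions that differed most also differed in their marks. Of the 1221 regions at least 2-fold higher in early G1, 58.2% were acetylated in early G1 and 7.94% carried H3K27me3 there, beside 40.8% and 19.8% of all kept regions. Of the 2172 at least 2-fold lower, 31.1% carried H3K27me3 in early G1 and 32.7% in G2/M, beside 19.8% and 16.3% of all kept regions. Acetylated in early G1 were 20.2% of them. Of the 470 at least 4-fold lower, 45.7% carried H3K27me3 in early G1 and 56.6% in G2/M.

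Across the cycle, the relative height of regions with H3K27me3 in both phases was lowest in early G1. So was that of regions with neither mark, whereas that of regions acetylated in both phases was highest there. Over regions listed in all 4 fractions, the median log2 relative height of those with H3K27me3 in both phases was -1.33 in early G1, -0.70 in late G1, -1.06 in S phase and -0.81 in G2/M. For those acetylated in both phases it was 1.09 in early G1, 0.71 in late G1, 0.90 in S phase and 0.83 in G2/M. For those with neither mark it was -0.42 in early G1, -0.29 in late G1, -0.31 in S phase and -0.36 in G2/M. Early G1 was the lowest fraction in 40.3% of regions with neither mark and the highest in 32.8%. The direction for H3K27me3 rests on the scaling, since the median height as deposited was 51.0 in early G1, 40.3 in late G1, 37.3 in S phase and 41.3 in G2/M. Early G1 was the lowest of the 4 fractions in 1053 of 1957 regions with H3K27me3 (53.8%) and the highest in 1348 of 2410 acetylated ones (55.9%), beside 33.3% and 39.6% of all 15296 regions.

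In the sets with the most extreme ratios, late G1 and S lay between the phases compared. Sets chosen for extreme values of early G1 over G2/M tend to leave other lists between them, so this place is no separate support. The 101 regions with a ratio of -3 or less had median log2 relative heights of -1.70 in early G1, 0.77 in late G1, 0.50 in S phase and 1.94 in G2/M. The 112 regions above 1.5 had 0.38 in early G1, -0.97 in late G1, -0.72 in S phase and -1.39 in G2/M. In both sets late G1 was on the side of G2/M, as in the rank correlations, where early G1 was the library that stood apart. Whether these medians follow the phase or that library was not tested.

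**Figure D4:**
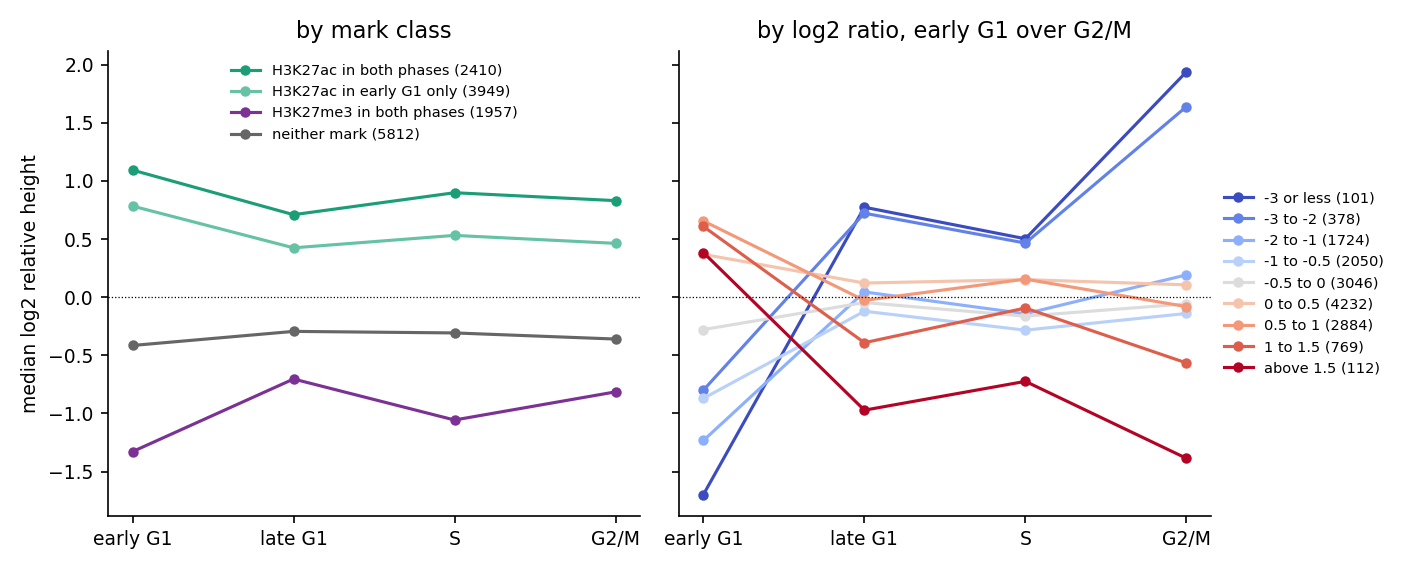
Median log2 relative height of H3K4me3 (vertical axis) by fraction, from early G1 at the left to G2/M at the right, for regions listed in all 4 fractions, by mark class (left) and by log2 ratio of early G1 over G2/M (right), with the number of regions in brackets. On the left the class with H3K27me3 is lowest in early G1 (-1.33), as is that with neither mark (-0.42). The acetylated classes are highest there (1.09 and 0.78). On the right late G1 and S lie between the early G1 and G2/M medians for the most extreme sets. The early G1 and G2/M points on the right are fixed in part by the choice of the sets, which also favours a place between them for late G1 and S.

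The 5 largest height ratios among the taller kept regions were all on chromosome 19. On chromosome 19 from 20348376 to 20349300 the height was 244 in early G1, 46.3 in late G1, 65.5 in S phase and 28.5 in G2/M, a log2 ratio of relative height of 2.33. The region had 1 peak of 925 bp in early G1 and 1 of 475 bp in G2/M, and H3K27ac was listed there in early G1 alone. On chromosome 19 from 21645776 to 21646850 the height was 233 in early G1, 42.9 in late G1, 48.6 in S phase and 36.8 in G2/M, a ratio of 1.90, also with H3K27ac in early G1 alone.

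The rest of the 5 had ratios from 1.81 to 1.90, and all 5 were acetylated in early G1. Chromosome 19 held 155 of the regions at least 2-fold higher in early G1 (12.7%, 10.9 to 14.7), against 1299 of all kept regions (7.43%). Chromosome 1 held 59 (4.83%, 3.70 to 6.19), against 10.8% of all kept regions. From general knowledge, the stretch of chromosome 19 between these 2 regions is rich in genes for KRAB zinc finger proteins, which bind DNA and many of which repress transposable elements.

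The 5 smallest ratios among the taller regions lay on chromosomes 16, 6 and 17, and H3K27me3 was listed in G2/M at each. On chromosome 16 from 30021851 to 30023150 the height was 64.5 in early G1, 412 in late G1, 445 in S phase and 756 in G2/M, a log2 ratio of -4.31, while its summed width was 1050 bp in both phases. On chromosome 6 from 125282776 to 125283375 it was 49.2 in early G1, 282 in late G1, 283 in S phase and 587 in G2/M, a ratio of -4.34, with H3K27me3 in every fraction but early G1. On chromosome 17 from 43971976 to 43972550 it was 29.6 in early G1, 60.4 in late G1, 70.7 in S phase and 296 in G2/M. The region on chromosome 17 was also low in late G1 and S, whereas the other 4 had heights from 187 to 448 in late G1 and from 151 to 445 in S phase.

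**Figure D5:**
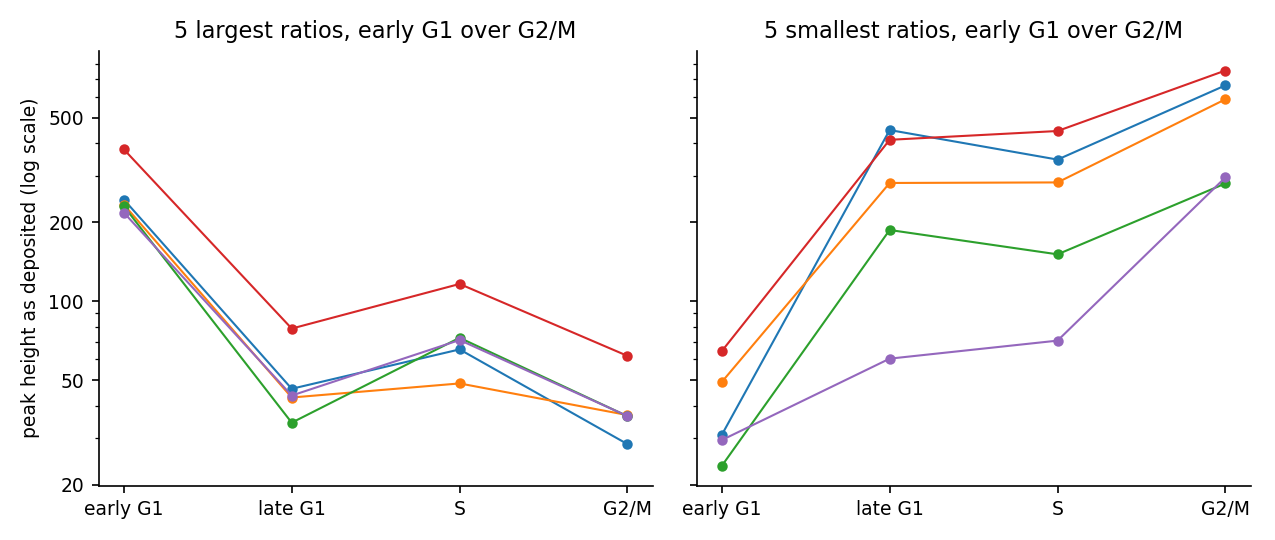
H3K4me3 peak height as deposited (log axis) by fraction, from early G1 at the left to G2/M at the right, for the 5 kept regions with the largest (left) and the 5 with the smallest (right) ratio of relative height, early G1 over G2/M; each line is 1 region with 1 library per point. On the left the early G1 heights run from 217 to 379 and lie above the other fractions, and on the right they run from 23.6 to 64.5 and lie below them.

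Exceptions to the class leanings were found in each class. Among regions acetylated in both phases, chromosome 18 from 6729051 to 6730450 had a height of 52.2 in early G1 and 365 in G2/M, a log2 ratio of -3.56, at a summed width of 900 bp in both phases. Among those with H3K27me3 in both phases, chromosome 4 from 106067826 to 106069025 had 173 in early G1 and 45.0 in G2/M, a ratio of 1.18. Among those with neither mark, chromosome 16 from 14378801 to 14379650 had 229 in early G1, 39.9 in late G1, 79.1 in S phase and 39.4 in G2/M, a ratio of 1.78.

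In the 13603 kept regions with 1 peak in each list (77.8%), the points of maximum height lay a median of 59 bp apart, and 68.1% lay within 100 bp. These peaks were chosen for their overlap, which bounds that distance. The early G1 peak reached further at both ends in 46.2% of them and fell short at both ends in 8.91%. Peaks acetylated in both phases reached further at both ends in 62.2%, those with H3K27me3 in both phases in 29.6%.

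Some regions held 1 peak in one list and several in the other. In 2646 kept regions (15.1%) 1 early G1 peak spanned 2 or more G2/M peaks, and in 972 (5.56%) the reverse was found. The gaps were short, with a median of 125 bp in each of these sets. The median log2 width ratio was 0.22 in the regions with 1 peak in each list, as in all kept regions. The regions joined in early G1 had a median log2 height ratio of 0.32 and those broken in early G1 had -0.73.

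The widest kept regions were long in every fraction. On chromosome 7 from 23506051 to 23514025 the width was 7975 bp in early G1, 7225 bp in late G1, 8175 bp in S and 6800 bp in G2/M, with H3K27ac in all 4 and no H3K27me3. One wide region went the other way: on chromosome 10 from 42382276 to 42395600, in a window crowded with lost peaks, 5 early G1 peaks summed to 1650 bp, against 14800 bp in late G1, 11525 bp in S and 13325 bp in G2/M. Among regions of at least 1 kb in one list and above the median relative height in both, the largest width ratio was at chromosome 12 from 88972276 to 88974850, with 2575 bp in early G1, 800 bp in late G1, 1375 bp in S and 775 bp in G2/M, and its height was 213 in early G1 and 75.1 in G2/M.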

How the data were processed

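Chromatin immunoprecipitation with sequencing had been done for 4 histone marks in 4 sorted fractions, with 1 library each. The authors deposited 1 peak list per library. The submitters' processing notes name Bowtie 0.12.7 and list hg19 and mm9 as builds, with no role; positions lie on human chromosomes and were taken to be hg19. How peaks were called, whether inputs entered, and how many reads each list rests on was not given in the sources used here. Column 6, a deposited signal with decimals and no stated scale, served as the height. The deposited score column was negative and more negative for taller peaks. Both readings come from the values. The width column deposited by the authors equals end minus start plus 1 in every peak. Peaks on chromosomes coded 22 to 24 had a height of 0 and were left out.

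Peaks were matched by at least 1 bp, and overlapping peaks of both lists were merged into regions. A mark was present in a phase when a peak of it overlapped the peak or region. Relative height is the tallest peak over the list's median over kept regions. Regions were named by rule: the 4 tallest gained and 4 tallest lost peaks per mark class, leaving out places with both marks; the 5 largest and 5 smallest height ratios among regions above the median mean height, with 3 per constant class; the 5 widest regions; and the 5 largest and 5 smallest width ratios among regions of at least 1 kb in one list and above the median relative height in both. The text gives a part of them. The members and lists were chosen with earlier results of these data known. Alternatives were other overlaps, stricter lists, other scalings and other mark distances. The interval code was tested on simulated data. Computations used Python 3.11.15, numpy 2.4.6, pandas 2.3.3, scipy 1.17.1 and matplotlib 3.10.9.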

Additional observations from a re-analysis of the deposited data

How the results depend on the processing

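No paired analysis was possible because each fraction had 1 library. Shares moved with how a match was drawn. The kept shares, early G1 and then G2/M, were 73.5% and 73.8% when at least 50% of a peak had to be covered. They were 90.7% and 82.1% when both lists were cut, before matching, to the peaks with a score more negative than the median. With equal numbers of peaks they were 78.2% and 82.8%. With both lists cut to peaks of at least 500 bp they were 83.5% and 92.4%. When a partner within 500 bp sufficed they were 89.8% and 83.7%. Without the 7 crowded windows, an alternative chosen after seeing the data, the G2/M share was 78.6%.

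With both H3K4me3 lists cut to their stronger part and matched anew, H3K27me3 lay under 17.0% of unmatched early G1 and 44.5% of unmatched G2/M peaks. H3K27ac lay under 38.0% and 5.70% of them. Many of these peaks had a partner in the weaker part of the other list. With marks counted within 1 kb, the shares of gained and lost peaks were 35.8% and 37.2% for H3K27me3 and 28.8% and 8.20% for H3K27ac. With equal numbers of H3K27ac peaks the gained share was 13.2%.

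For the median log2 height ratio, values run in the order H3K27ac in both phases, H3K27me3 in both phases, neither mark. With heights as deposited they were 1.09, 0.44 and 0.73, and the last 2 changed sign. As differences in percentile rank they were 2.95, -7.77 and -2.60 points. Scaled on regions with neither mark they were 0.40, -0.25 and 0.040, and the last changed sign. With scores they were -0.12, -0.62 and -0.28, and the first changed sign. Among regions above the median mean height, H3K27me3 gave -0.79 and neither mark 0.11, a change of sign. In regions with 1 peak in each list, neither mark gave -0.012. With marks within 1 kb, H3K27ac gave 0.30 and H3K27me3 -0.28. Leaving out the crowded windows moved none of the 3 medians beyond its interval. The 3 classes hold no region with both marks, so leaving such regions out could not change them. In all 7 scalings and subsets compared, H3K27ac lay above and H3K27me3 below the median of all kept regions. Relative heights, heights as deposited and heights scaled on regions with neither mark differ only by a constant per list. Their differences of 0.24 and -0.41 are the same by construction, so they are not separate checks.

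For the median log2 width ratio, neither mark gave 0.20 in regions with 1 peak in each list. By span, H3K27ac gave 0.22 and neither mark 0.17. In regions of at least 500 bp in both lists the values were 0.24, 0.100 and 0.16. At 1.5-fold, 3897 regions were higher and 3952 lower in early G1, and among the taller regions 656 were higher and 1010 lower at 2-fold. The cause of these changes was not tested. Each phase had 1 library of unknown depth, so a missing peak may be a peak below that list's limit, and phase cannot be told apart from library.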
